A study of Mus musculus with 24 samples.

Results

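The mammalian circadian clock is a transcription loop that runs in nearly every cell. CLOCK and BMAL1 (encoded by Arntl) form a dimer that activates genes carrying E-boxes, among them the period genes (Per1, Per2 and Per3) and the cryptochrome genes (Cry1 and Cry2), whose proteins return to the nucleus and repress that dimer. REV-ERBα and REV-ERBβ (encoded by Nr1d1 and Nr1d2) repress Arntl and are opposed by the ROR receptors, and Dbp is a transcription factor under direct E-box control that drives D-box genes. In the hypothalamus the suprachiasmatic nucleus holds the master clock that light resets, and other hypothalamic nuclei carry clocks that feeding time can shift.

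These 10 genes were chosen by symbol among the 55471 genes counted in mouse hypothalamus, and each of them was found once and passed the expression filter, which left 18992 genes to test. The mice were male C57BL6/J, 18 weeks old and fed chow. ExpOF mice received an energy-dense, sucrose-supplemented liquid diet through a gastric catheter, with the dose raised stepwise, and Control mice received sterile water at the same flow rates. Brains were taken at the end of overfeeding, at day 14 (d14), or 3 days later (d14+3), and each library holds hypothalamic RNA of 1 mouse. After day 14, ExpOF mice were infused with sterile water, which Control mice received throughout. The labels give no hour of death for single mice, and the study's methods say only that tissue was taken from unfasted mice in the morning. In whole tissue, fewer cells of a type and less RNA per cell cannot be told apart.

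Of the 24 libraries, the study set aside 1 Control d14 mouse for poor RNA quality, which corresponds to Control d14 replicate 4, and 23 were used here: 5 Control d14, 6 ExpOF d14, 6 Control d14+3 and 6 ExpOF d14+3. Their total counts lay between 8928182 and 34848437, and the smallest count of any clock gene in any of these libraries was 198 (Cry1). Each group held mice killed in July and in September, 3 of each except for Control d14, which had 2 from September. The labels also give an extraction round, which was 1 for replicates 1 to 3 and 2 for replicates 4 to 6 of each group. RNA integrity numbers (RIN) ranged from 8 to 10 in Control d14, from 9.6 to 10 in ExpOF d14, from 7.2 to 9.9 in Control d14+3 and from 8.8 to 10 in ExpOF d14+3. In Control d14+3, the libraries of extraction round 2 were those with a RIN of 7.2 to 7.9. All 8 markers of hypothalamic neurons were counted in every group, with summed levels of 408 to 967 CPM (counts scaled to library size with TMM factors) per library. The 12 suprachiasmatic nucleus genes summed to between 179.98 and 339.6 CPM.

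The sequences just before the transcription starts are shown because they carry the letters through which the loop is known to act on its own members. RefSeq (GRCm38.p6, the sequence of the files' mm10 build) gave 250-base windows for 9 of the 10 genes, all but Per2. The searched letters, on both strands, were CACGTG (the E-box), CACGTT (a non-canonical E-box), TTANNTAA (a core of the D-box bound by Dbp and its relatives), AGGTCA (the core motif bound by REV-ERB and ROR receptors) and TGACGTCA (the full cAMP response element). In the lines that follow, capitals mark these letters, either as searched or as their reverse complement, with 30 bases on each side where the window allows it.
Per1, plus strand, chr11:69098753-69098847: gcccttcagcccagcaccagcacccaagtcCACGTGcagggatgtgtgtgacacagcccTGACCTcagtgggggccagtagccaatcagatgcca
Per3, minus strand, chr4:151044786-151044900: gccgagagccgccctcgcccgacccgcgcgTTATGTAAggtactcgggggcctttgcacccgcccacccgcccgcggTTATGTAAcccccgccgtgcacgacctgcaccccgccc
Cry1, minus strand, chr10:85185079-85185163: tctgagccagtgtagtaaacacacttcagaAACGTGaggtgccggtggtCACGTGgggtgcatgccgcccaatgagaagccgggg
Cry2, minus strand, chr2:92434200-92434265: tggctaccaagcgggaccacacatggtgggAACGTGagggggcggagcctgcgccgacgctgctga
Nr1d1, minus strand, chr11:98775378-98775435: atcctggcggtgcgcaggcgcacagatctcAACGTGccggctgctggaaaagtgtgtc
Nr1d2, minus strand, chr14:18239148-18239213: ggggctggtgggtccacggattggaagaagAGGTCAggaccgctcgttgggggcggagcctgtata
In 1 of its 2 windows, Per1 held an E-box whose first base lies at -166 from that start and an AGGTCA motif at -137. The other Per1 window held none of the searched letters. Cry1 held an E-box at -60 with a non-canonical one at -79. Per3 held 2 D-box cores of the same 8 letters, at -205 and -158, and no E-box. Cry2 and Nr1d1 each held a non-canonical E-box, at -166 and -28. Nr1d2 held an AGGTCA motif at -77, and so did 1 of the 3 windows of Clock, at -119. The windows of Arntl and Dbp held none of these letters, which says only that they are not within 250 bases of these starts. Among 27018 genes with a window, 6.86% held an E-box, 4.5% the non-canonical form, 6.3% a D-box core, 15.8% an AGGTCA motif and 1.77% the full cAMP response element, and no clock gene window held the last.

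Per kilobase of exon, the REV-ERB genes and Cry2 were the most abundant clock transcripts and Arntl the least. Nr1d1 stood at 30.04 ± 3.77 CPM per kb (SD, n = 23), ahead of Nr1d2 in 20 of 23 libraries. Nr1d2 (22.8 ± 3.22 CPM per kb) and Cry2 (22.7 ± 1.68 CPM per kb) could not be ordered, with Nr1d2 ahead in 12 of 23 libraries. Dbp followed at 14.5 ± 3.05 CPM per kb and Per1 at 11.2 ± 1.33 CPM per kb. Cry1, Per3 and Clock lay close together at 6.56 ± 0.457, 6.50 ± 0.643 and 6.16 ± 1.11 CPM per kb, and Cry1 was ahead of Per3 in 12 of 23 libraries and Per3 ahead of Clock in 17. Per2 (5.12 ± 0.752 CPM per kb) and Arntl (4.03 ± 0.289 CPM per kb) closed the order, with Per2 ahead in 20 of 23 libraries. Within a gene, levels varied most for Dbp, whose highest library was 2.27 times its lowest, and least for Cry1 (1.26 times), Arntl (1.28 times) and Cry2 (1.32 times).

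**Figure D1:**
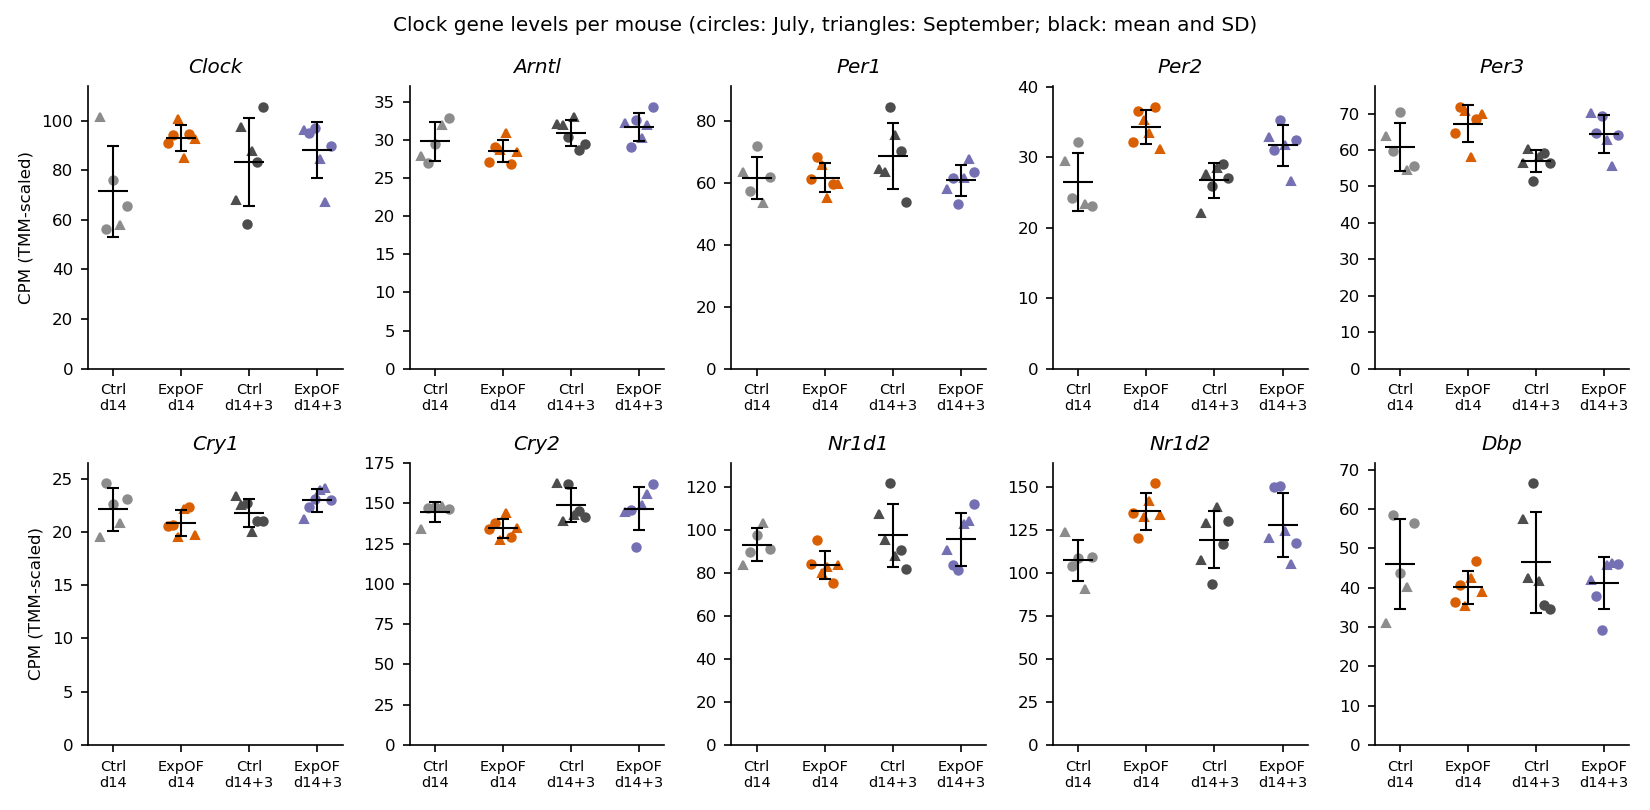
Level of each of the 10 clock genes in every mouse, in TMM-scaled CPM on an axis that starts at 0, by group; circles are July and triangles September mice, and the black marks are the group mean and SD. Per2 in ExpOF d14 sits between 31.3 and 37.2 CPM, whereas 4 of the 5 Control d14 mice sit between 23.2 and 29.5 CPM.

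At the end of overfeeding, transcripts of Per2, Clock and Nr1d2 stood at higher means in ExpOF than in Control mice, by 1.30-fold, 1.30-fold and 1.26-fold, but no clock gene passed an adjusted p of 0.05 in edgeR's test over 23 libraries. At an unadjusted p under 0.05, 3 of 10 clock genes were higher in ExpOF and 0 lower, and 26.7% of all 18992 genes tested reached the same threshold, 2492 of them higher and 2577 lower. At the adjusted threshold edgeR called 0 clock genes, against 1 gene in all, or 0.00527%. The median log2 fold change of the 10 genes was -0.03, beside -0.02 over all genes tested. The groups overlapped for each of the 10 genes, whereas 2.5% of all genes had groups without overlap. The clock genes' share of low p-values was thus close to that of the whole transcriptome.

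Per2 (mm10, as for all genes here, chromosome 1, 91415982 to 91459324) encodes the period protein that nutrient and glucocorticoid signals as well as the clock dimer are known to regulate, and no annotated gene overlaps it. Control d14 mice had 29.5, 24.2, 32.3, 23.4 and 23.2 CPM, and ExpOF d14 mice ran from 31.3 to 37.2 CPM with a median of 34.5. All ExpOF mice were above 4 of the 5 Control mice, and 4 of 6 were above the highest Control mouse. The log2 fold change was 0.37 ± 0.09 (SE; n = 6 and 5), with p = 0.000323 and an adjusted p of 0.135 in edgeR's quasi-likelihood test and p = 0.00649 in a two-sided exact permutation test, where 0.00216 is the smallest value the design allows. It was 0.41 in the July mice alone and 0.34 in the September mice alone. DESeq2 on the same counts called Per2 (log2 fold change 0.38, adjusted p = 0.0276), as the 1 clock gene among 196 genes called, 1.03% of those tested.

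Clock (chromosome 5, 76209868 to 76304792) encodes the histone acetyltransferase partner of BMAL1 and, with 13727 exon bases, is the longest of the 10 transcripts. Its level was 101, 56.3, 76.0, 58.0 and 65.6 CPM in Control d14 mice and 84.9 to 100.8 CPM in ExpOF d14 mice, with a median of 93.5. Control replicate 1 lay above all ExpOF mice, and the other 4 Control mice lay below all of them. The log2 fold change was 0.38 ± 0.14 (SE; n = 6 and 5), with p = 0.0129 and an adjusted p of 0.139 in edgeR's test and p = 0.0238 in the exact permutation test. It was 0.50 in July and 0.22 in September, the cohort that holds Control replicate 1. The pseudogene Ube2n-ps1 and the gene model Gm43658 lie within the Clock gene on the same strand, with median counts of 68.5 and 0.

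Nr1d2 (chromosome 14, 18204054 to 18239127), the REV-ERBβ gene, was at 124, 104.5, 109, 90.8 and 109.6 CPM in Control d14 mice. ExpOF d14 mice ranged from 120.4 to 152 CPM with a median of 134, and 5 of 6 were above the highest Control mouse, which was again replicate 1. In the fit, the log2 fold change was 0.34 ± 0.10 (SE; n = 6 and 5), with p = 0.00254 and an adjusted p of 0.135 in edgeR's test and p = 0.00649 in the exact permutation test. July and September mice gave 0.33 and 0.34.

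In edgeR's test the calls of these 3 genes depended on Control d14 replicate 1. Without it, Per2, Clock and Nr1d2 were all called, with log2 fold changes of 0.42, 0.55 and 0.40 and adjusted p-values in edgeR's test of 0.02, 0.02 and 0.0201, but so were 4220 genes in all, 22% of those tested. Among libraries with a RIN of at least 9, which leaves out Control d14 replicates 1 and 5 as well as 4 libraries of d14+3, the same 3 genes were called at adjusted p-values of 0.0302, 0.0302 and 0.0321, beside 2705 genes or 13.9% of those tested.

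Nr1d1, the paralogue of Nr1d2, had a lower mean in ExpOF mice. Nr1d1 (chromosome 11, 98767932 to 98775333), the REV-ERBα gene, was at 83.9, 89.7, 97.6, 103 and 91.2 CPM in Control d14 mice and at 75.5 to 95.1 CPM in ExpOF d14 mice, with a median of 83.2. The log2 fold change was -0.16 ± 0.09 (SE; n = 6 and 5; adjusted p = 0.269 in edgeR's test; p = 0.0519 in the exact permutation test). The last 472 bases of Nr1d1 overlap Thra, which lies on the opposite strand and is abundant (median count 12019.5), and whether counting used strand is not given in the sources used here.

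Among the other period and cryptochrome genes, differences at d14 were small. Per3 (chromosome 4, 151003652 to 151044665) was at 63.9, 59.6, 70.4, 54.5 and 55.5 CPM in Control d14 mice and 58.0 to 71.8 CPM in ExpOF d14 mice, with a log2 fold change of 0.14 ± 0.07 (SE; n = 6 and 5; adjusted p = 0.192 in edgeR's test). Per1 (chromosome 11, 69095217 to 69109960), a period gene that light and neuronal activity induce, had the same mean in both groups, 61.6 ± 6.90 CPM in Control d14 and 61.6 ± 4.70 CPM in ExpOF d14 (SD, n = 5 and 6). Its log2 fold change was 0.00 ± 0.09 (SE), an adjusted p of 0.993 in edgeR's test. Cry1 (chromosome 10, 85131700 to 85185064) was at 22.1 ± 1.99 CPM in Control d14 and 20.8 ± 1.20 CPM in ExpOF d14 (SD, n = 5 and 6). Cry2 (chromosome 2, 92403646 to 92434043) was at 134, 147, 148, 148 and 146 CPM in Control d14 mice and 127 to 144 CPM in ExpOF d14 mice, with a median of 134. Here replicate 1 was the lowest Control mouse, and the other 4 Control mice lay above all ExpOF mice. The log2 fold change of Cry2 was -0.11 ± 0.06 (SE; adjusted p = 0.259 in edgeR's test; p = 0.0281 in the exact permutation test), and that of Cry1 was -0.09 ± 0.06 (SE; adjusted p = 0.351).

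Arntl and Dbp, the activator and the output gene of the loop, did not pass either threshold at d14. Arntl (chromosome 7, 113207465 to 113314126) was at 29.9 ± 2.56 CPM in Control d14 and 28.6 ± 1.48 CPM in ExpOF d14 (SD, n = 5 and 6), a log2 fold change of -0.06 ± 0.06 (SE; adjusted p = 0.494 in edgeR's test). Dbp (chromosome 7, 45705088 to 45710114), whose transcript is known for its large daily swing in mouse tissues, was at 31.0, 58.4, 43.6, 40.3 and 56.4 CPM in Control d14 mice and 35.3 to 46.8 CPM in ExpOF d14 mice. The Control mice thus covered the whole range of the ExpOF mice, and the log2 fold change was -0.20 ± 0.17 (SE; adjusted p = 0.421 in edgeR's test). It was -0.36 in July and 0.12 in September. Among libraries with a RIN of at least 9 it was -0.39 (adjusted p = 0.0692 in edgeR's test). Dbp shares 648 bases with Sphk2 on the opposite strand (median count 729.5). Cry2 and Arntl overlap D930015M05Rik and Gm45355, also on the opposite strand (median counts 37.5 and 0).

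At d14+3, the period genes Per2 and Per3 were the clock genes with the lowest p-values, at means 1.19-fold and 1.13-fold higher in ExpOF than in Control mice. At an unadjusted p under 0.05, 2 of 10 clock genes were higher in ExpOF and 0 lower, against 7.11% of all genes tested, and at the adjusted threshold 0 clock genes and 0% of all genes were called by edgeR (1350 genes had an unadjusted p under 0.05). DESeq2 called 42 genes, 0.221% of those tested, and 0 clock genes. The median log2 fold change was 0.06 over the clock genes and 0.01 over all genes. Groups overlapped for all 10 clock genes, and 0.421% of all genes had groups without overlap.

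Per2 ran from 22.2 to 29.1 CPM in Control d14+3 mice, with a median of 27.4, and from 26.6 to 35.4 CPM in ExpOF d14+3 mice, with a median of 32.2. Of the 6 ExpOF mice, 5 were above all Control mice, and the exception was replicate 5. Its log2 fold change was 0.25 ± 0.08 (SE; n = 6 and 6), with p = 0.0076 and an adjusted p of 0.521 in edgeR's test and p = 0.013 in a two-sided exact permutation test. July and September mice gave 0.27 and 0.22. Among libraries with a RIN of at least 9 the log2 fold change was 0.36 and Per2 was called (adjusted p = 0.036 in edgeR's test), beside 8.48% of all genes.

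Per3 ranged from 51.5 to 60.2 CPM in Control d14+3 mice, with a median of 57.3, and from 55.7 to 70.1 CPM in ExpOF d14+3 mice, with a median of 64.3. Here too, 5 of 6 ExpOF mice were above all Control mice. The log2 fold change was 0.18 ± 0.07 (SE; n = 6 and 6; p = 0.0154 and an adjusted p of 0.575 in edgeR's test; p = 0.0173 in the exact permutation test), with 0.25 in July and 0.10 in September. Per3 lies within the span of Camta1 on the same strand (median count 9263 for Camta1).

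Clock and Nr1d2 showed smaller differences than at d14. Clock was at 83.3 ± 17.8 CPM in Control d14+3 and 88.4 ± 11.3 CPM in ExpOF d14+3 (SD, n = 6 each), a log2 fold change of 0.09 ± 0.14 (SE; adjusted p = 0.863 in edgeR's test). Nr1d2 was at 119.5 ± 16.6 CPM and 128 ± 18.5 CPM (SD, n = 6 each), a log2 fold change of 0.10 ± 0.10 (SE; adjusted p = 0.794). Per1 was at 68.7 ± 10.6 CPM in Control d14+3 and 60.9 ± 5.02 CPM in ExpOF d14+3 (SD, n = 6 each), a log2 fold change of -0.17 ± 0.09 (SE; adjusted p = 0.714). The other 5 genes had log2 fold changes between -0.17 (Dbp) and 0.08 (Cry1). Several values were larger among libraries with a RIN of at least 9. There Dbp, Per1 and Nr1d1 had -0.48, -0.27 and -0.22, and Clock, Nr1d2 and Per3 had 0.30, 0.25 and 0.23. None of these was called (adjusted p of 0.0505 or above in edgeR's test), while 8.48% of all genes were. The test of the difference between the days itself called 0 clock genes at either threshold, with adjusted p-values of 0.903 or above, so that a change of the ExpOF effect from d14 to d14+3 was not shown for any of them. Over all genes, 4.42% had an unadjusted p under 0.05 for that difference and 0% were called by edgeR.

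**Figure D2:**
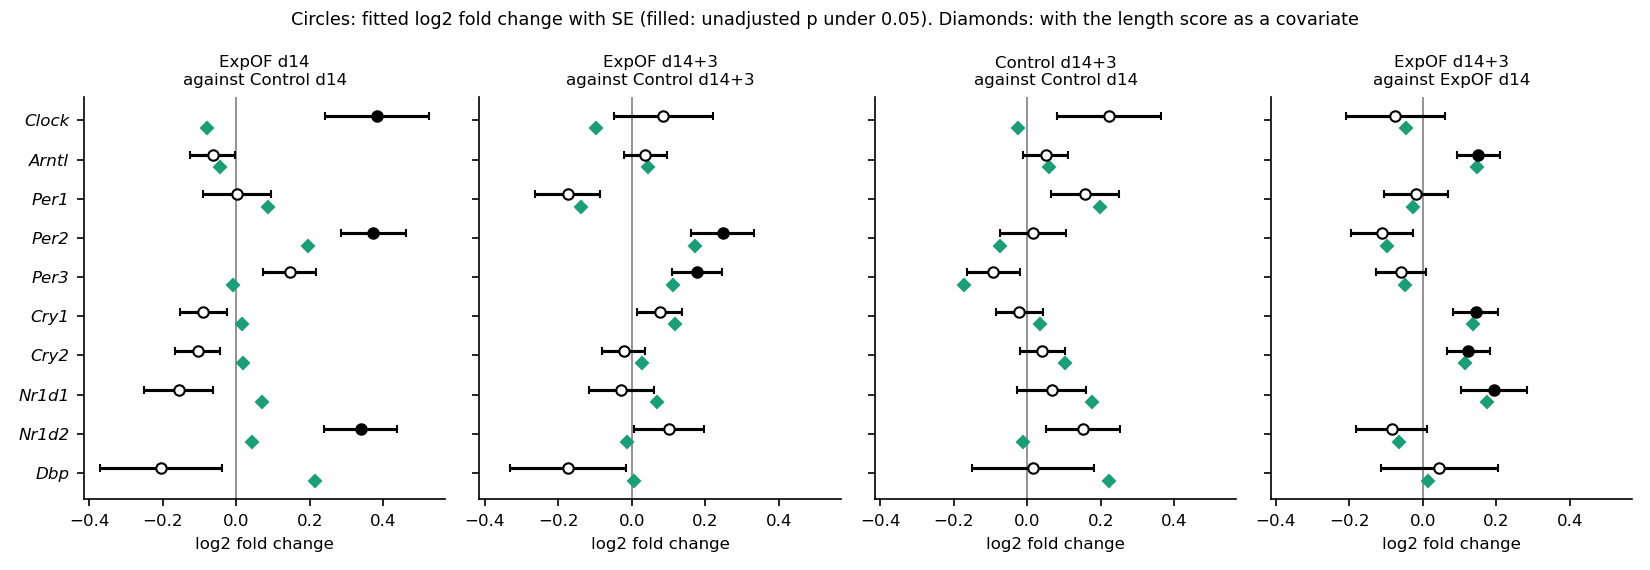
Log2 fold change of each clock gene in the 4 group comparisons, with circles for the fitted value and its SE (filled where the unadjusted p was under 0.05) and diamonds for the value when the length score of the library was a covariate. At d14 the values of Clock, Per2 and Nr1d2 are 0.38, 0.37 and 0.34 as circles and -0.08, 0.20 and 0.04 as diamonds.

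Between the sampling days, the clock genes of Control mice were close to each other. From d14 to d14+3, 0 of 10 clock genes passed an unadjusted p of 0.05 in Control mice, against 12.7% of all genes, and 0 passed the adjusted threshold, against 218 genes or 1.15%. Their log2 differences (d14+3 minus d14) lay between -0.09 (Per3) and 0.22 (Clock). In ExpOF mice, 4 of 10 clock genes were higher at d14+3 at an unadjusted p under 0.05 and 0 lower, against 7.79% of all genes, of which 1024 were higher and 455 lower. At the adjusted threshold 0 clock genes and 0% of all genes were called by edgeR.

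The 4 genes were Nr1d1, Arntl, Cry1 and Cry2. Arntl, which REV-ERB proteins repress, ran from 26.9 to 31.0 CPM in ExpOF d14 mice (median 28.6) and from 29.1 to 34.4 CPM in ExpOF d14+3 mice (median 32.1). The log2 difference was 0.15 ± 0.06 (SE; n = 6 and 6; adjusted p = 0.435 in edgeR's test; p = 0.013 in the exact permutation test). Cry1 ran from 19.5 to 22.3 CPM at d14 and from 21.3 to 24.2 CPM at d14+3, and 5 of 6 mice of d14+3 were above all mice of d14, with a log2 difference of 0.14 ± 0.06 (SE; adjusted p = 0.524 in edgeR's test; p = 0.013 in the exact permutation test). Nr1d1 and Cry2 had log2 differences of 0.19 ± 0.09 and 0.12 ± 0.06 (SE; adjusted p = 0.59 and 0.621 in edgeR's test; p = 0.0671 and 0.0823 in the exact permutation test). All 4 had the same sign in July and September mice. Because each of these day comparisons shares its libraries with the diet comparisons, their values are not independent of those above.

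Markers of neighbouring tissue moved with the day. The 4 thalamus markers, Prkcd, Rora, Tnnt1 and Lef1, were all higher at d14+3 at an unadjusted p under 0.05 in both diets, and their summed level ranged from 94.5 to 307 CPM in Control d14, 100.8 to 211 CPM in ExpOF d14, 247 to 539 CPM in Control d14+3 and 239.9 to 528 CPM in ExpOF d14+3. Of 8 markers of hypothalamic neurons, 5 were lower at d14+3 in Control mice and 3 in ExpOF mice, and 0 were higher. A thalamus score was computed per library as the mean log2 CPM of Prkcd, Tnnt1 and Lef1, without Rora. With this score as a covariate, the day differences of Arntl and Cry1 in ExpOF mice were 0.04 and 0.07. Those of Nr1d1 and Cry2 were 0.00 and 0.01. In Control mice the same covariate gave Clock a log2 difference of 0.56 and Nr1d2 one of 0.34, both called (adjusted p = 0.0194 and 0.0283 in edgeR's test), with 17.5% of all genes called. The score itself was higher at d14+3, by 1.32 in Control and 1.39 in ExpOF mice (two-sided exact permutation tests, p = 0.0303 and 0.00433). Its effect and that of the day therefore cannot be told apart. Between diets the marker sums overlapped throughout, and the thalamus score differed by -0.28 at d14 and by -0.21 at d14+3 (two-sided exact permutation tests, p = 0.587 and 0.506). Markers of cortex and striatum summed to 17.3 to 32.9 CPM in all groups. Those of choroid plexus reached 3030 CPM in 1 Control d14 mouse and 1291 CPM in 1 ExpOF d14+3 mouse, against 33.3 to 60.3 CPM over the groups ExpOF d14 and Control d14+3. The 4 pituitary markers reached 105 CPM in 1 Control d14 mouse and the 5 erythrocyte markers ran from 40.2 to 287 CPM. No marker in these lists was at 0 in all libraries of a group, and their part in the clock gene values was not tested beyond the thalamus covariate.

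No cohort difference passed for a clock gene. September against July mice, fitted beside the 4 groups, gave 0 clock genes at either threshold and log2 differences between -0.07 (Per2) and 0.05 (Arntl). Over all genes, 3.88% had an unadjusted p under 0.05 for cohort and 0% were called by edgeR.

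The libraries also differed in the level of long against short transcripts, and several clock genes went with that in opposite directions. The source of that difference was not tested. A length score was computed per library as the mean log2 CPM of the 4950 tested genes with at least 6000 exon bases minus that of the 2761 with at most 1500. It ranged from 3.99 to 4.35 in Control d14, from 4.30 to 4.45 in ExpOF d14, from 3.98 to 4.37 in Control d14+3 and from 4.12 to 4.44 in ExpOF d14+3. The ExpOF mean was higher by 0.26 at d14 (two-sided exact permutation test, p = 0.00866) and by 0.10 at d14+3 (p = 0.229). Control d14 replicate 1, the mouse with high Clock and Nr1d2 and low Cry2, had the highest score of its group.

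Over the 23 libraries, deviations from the group means were compared with those of the length score for each of the 10 genes. How many of all genes tested follow the score as closely was not computed, so these ties are not shown to be particular to clock genes. Clock followed the score most closely, with Pearson's r = 0.93 and Spearman's rho = 0.91 (each p = 1e-05 in 100000 permutations within groups, the smallest these can give). It kept r = 0.88 without the 2 libraries farthest from the median score, and had 0.89 in July and 0.96 in September. Nr1d2 had r = 0.81 and rho = 0.69 (permutation p = 3e-05 and 0.00095), Per3 had r = 0.64 and rho = 0.64 (0.00232 and 0.00131), and Per2 had r = 0.59 and rho = 0.65 (0.0115 and 0.00326). Without the 2 farthest libraries these were r = 0.74, 0.61 and 0.62.

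Nr1d1, Dbp, Cry2 and Cry1 ran against the score. Nr1d1 had r = -0.67 and rho = -0.63 (permutation p = 0.00167 and 0.00399), Dbp had r = -0.63 and rho = -0.54 (0.0103 and 0.0247), Cry2 had r = -0.62 and rho = -0.70 (0.00394 and 0.00069), and Cry1 had r = -0.54 and rho = -0.53 (0.0183 and 0.0187). Without the 2 farthest libraries these were r = -0.55, -0.40, -0.52 and -0.40. Per1 (r = -0.26, rho = -0.07) and Arntl (r = -0.11, rho = -0.14) were the genes least tied to it, with permutation p-values of 0.343 and 0.676 for r and 0.779 and 0.576 for rho. Nr1d1, Dbp, Cry2 and Cry1 include the 3 shortest transcripts, Dbp (2993 exon bases), Nr1d1 (3077) and Cry1 (3340), but Cry2 (6320) is longer than Per2 (5856) and Nr1d2 (5409).

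**Figure D3:**
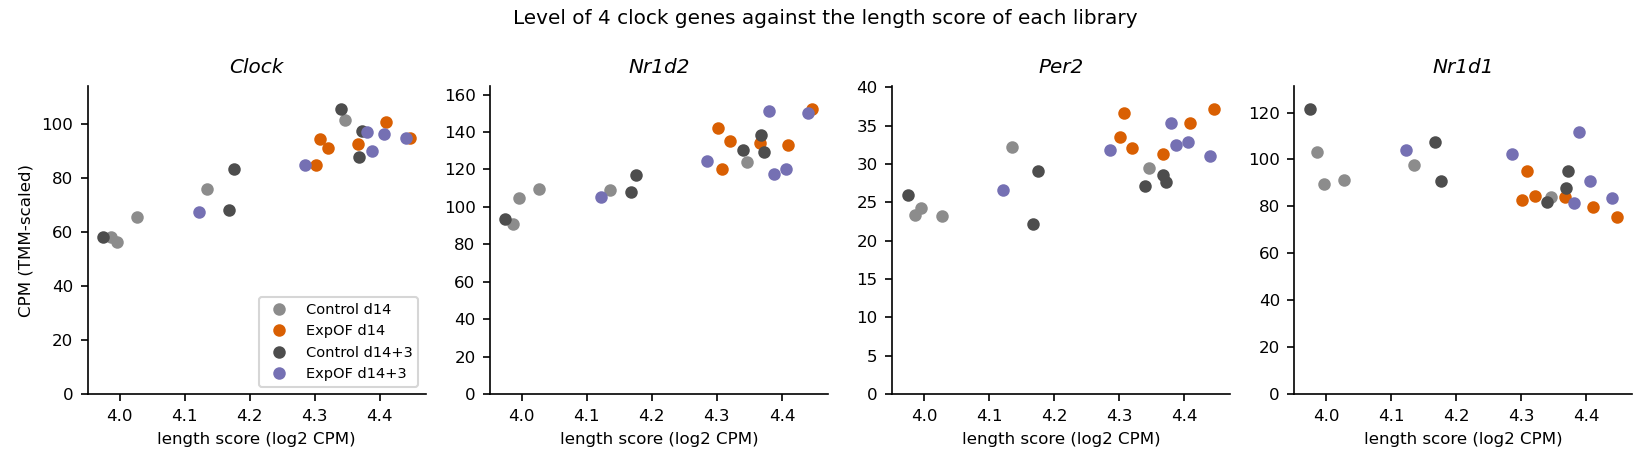
Level of Clock, Nr1d2, Per2 and Nr1d1 in each library, in TMM-scaled CPM, against the length score of that library in log2 CPM, coloured by group. Clock is higher in libraries with a higher score in all groups (r = 0.93 for deviations from group means), whereas Nr1d1 declines (r = -0.67).

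With the length score as a covariate in the same edgeR fit, Clock at d14 had a log2 fold change of -0.08 and Nr1d2 one of 0.04, while Per2 kept 0.20 (adjusted p = 0.934, 0.956 and 0.934). At d14+3 the fit gave Per2 0.17 and Per3 0.11 (adjusted p = 0.714 and 0.761). Nr1d1, Dbp, Cry1 and Cry2 at d14 had 0.07, 0.21, 0.02 and 0.02. The covariate differs between the d14 groups, so that its effect and that of ExpOF cannot be told apart at d14.

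Some clock genes varied together across mice of a group. Of the 45 pairs of clock genes, 19 had a Pearson correlation above 0.5 or below -0.5 between deviations from group means over 23 libraries, and these 19 had the same sign in July and September mice. After the length score was taken out, 6 pairs remained beyond 0.5 in size. The share of such pairs among all genes tested was not computed, so these counts are not shown to be particular to clock genes. Scaling, dissection and the level of long against short transcripts may also enter these correlations, and no test was made of them.

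Nr1d1 and Nr1d2 were the strongest pair and opposed each other, with r = -0.87 over all libraries, -0.92 in July, -0.84 in September and -0.75 after the length score was taken out. Nr1d1 went with Cry2 (r = 0.79, and 0.65 after the score was taken out). Per2 went with Per3 (r = 0.73, and 0.57 after), and Dbp went with Cry1 (0.71, and 0.56 after) and with Cry2 (0.74, and 0.57 after). Clock opposed Dbp (r = -0.76, and -0.63 after), while its tie to Nr1d2 went from 0.74 to -0.04. Arntl was not tied to any other clock gene beyond an r of 0.32 (Nr1d1). Per1 and Nr1d1 had r = 0.81 in July mice and -0.32 in September mice.

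**Figure D4:**
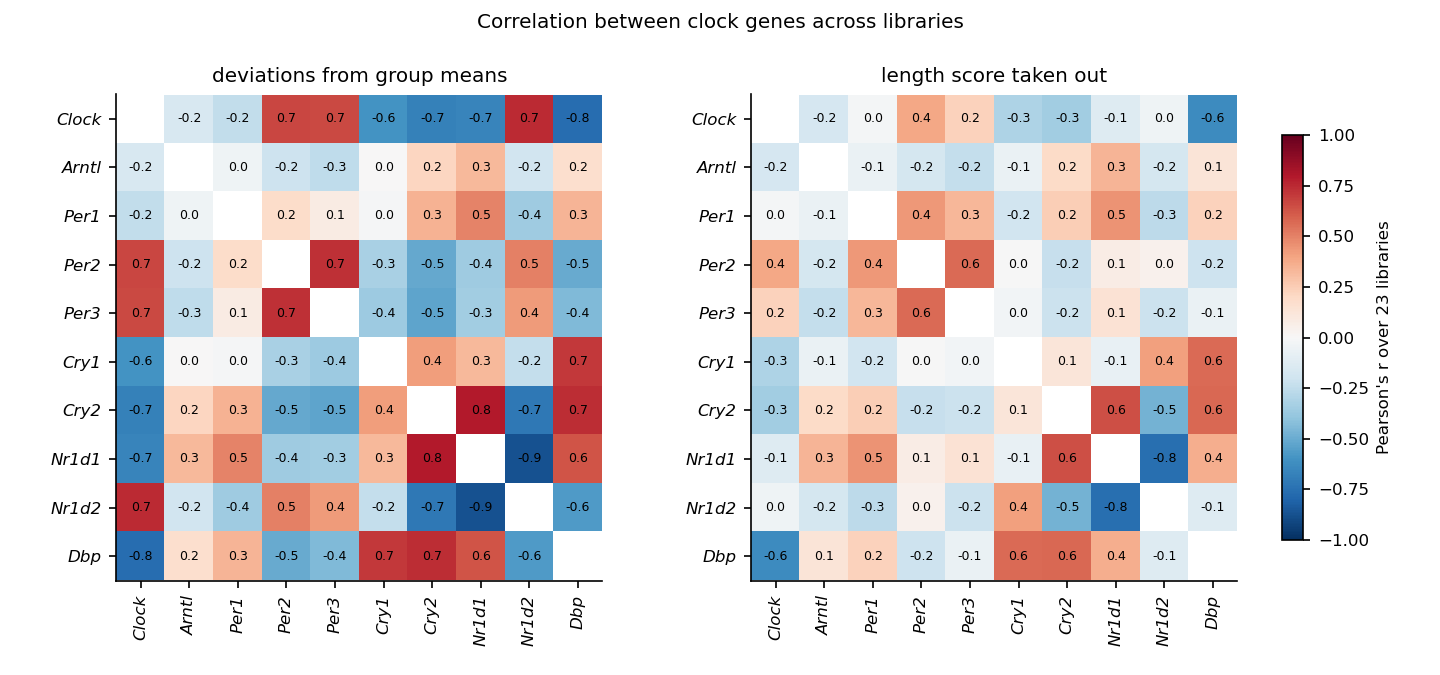
Pearson's r between clock genes over 23 libraries, for deviations from group means on the log2 CPM scale (left) and after the length score was regressed out of them (right), in red for positive and blue for negative values. Nr1d1 and Nr1d2 are at -0.87 on the left and -0.75 on the right, whereas Clock and Nr1d2 go from 0.74 to -0.04.

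Across 12297 other tested genes with a mean of at least 5 CPM, the gene most like Arntl was Npas2, the paralogue of Clock that also dimerizes with BMAL1 (r = 0.82, rho = 0.82 over 23 libraries; 0.79 in July and 0.85 in September). Vav3, Cnst, Kcnc2 and Kitl followed with r from 0.78 to 0.79. The genes most like Dbp were Ssbp4 (r = 0.93), Cox8a (0.92), Vps37d (0.92), Erf (0.91) and Atp6v0c (0.90), and each of these was itself correlated with the length score at r between -0.71 and -0.63. Those most like Per1 were Celf3 (r = 0.79), Patz1 (0.72), Gigyf1 (0.71), Abcg1 (0.70) and Zfp316 (0.68), with weaker values in September mice (0.20 to 0.57) than in July mice (0.78 to 0.94).

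Genes around the core loop were read with the same thresholds. At d14, the paralogues and ROR receptors had 1 of 5 members higher in ExpOF at an unadjusted p under 0.05 (Rorb, log2 fold change 0.20), and the median of the list was 0.20. Of 8 clock-controlled transcription factors and outputs (Tef, Hlf, Nfil3, Ciart, Bhlhe40, Bhlhe41, Wee1 and Usp2), 0 passed in either direction. Of 10 kinases, ligases and co-repressors that set the stability or action of clock proteins, 5 were higher and 1 lower, beside 26.7% of all genes at the same threshold. The lowest p-values were those of Gsk3b, a kinase of several clock proteins (log2 fold change 0.27 ± 0.09 SE), Ncor1, the co-repressor that REV-ERB proteins recruit (0.27 ± 0.11), Sirt1 (0.23 ± 0.10) and Hdac3, the deacetylase bound to NCOR1 (-0.14 ± 0.06). With the length score as a covariate, Gsk3b, Ncor1, Sirt1 and Hdac3 had -0.05, -0.06, 0.0047 and 0.03. None of the genes in these lists was called (adjusted p of 0.136 or above in edgeR's test).

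Of 12 suprachiasmatic nucleus genes at d14, 3 were higher and 2 lower at an unadjusted p under 0.05, which 26.7% of all genes passed. Prokr2, the receptor for the output signal prokineticin 2, had a log2 fold change of 0.56 ± 0.15 (SE), Lhx1 one of 0.29 ± 0.11, Syt10 one of 0.54 ± 0.23 and Avp one of -0.83 ± 0.30. Avp, which encodes vasopressin and is made in the suprachiasmatic nucleus as well as in the paraventricular and supraoptic nuclei, was at 120 ± 59.5 CPM in Control d14 and 68.0 ± 17.5 CPM in ExpOF d14 (SD, n = 5 and 6; adjusted p = 0.139 in edgeR's test). At d14+3 it was the 1 gene of the list past that threshold, at 84.5 ± 41.2 CPM in Control and 42.7 ± 11.7 CPM in ExpOF mice (SD, n = 6 each), a log2 fold change of -0.99 ± 0.29 (SE; adjusted p = 0.413). July and September mice gave Avp log2 fold changes of -0.96 and -0.31 at d14 and of -1.38 and -0.58 at d14+3. With the length score as a covariate, Prokr2, Lhx1, Syt10 and Avp at d14 had 0.33, 0.10, -0.13 and -0.10, and Avp at d14+3 had -0.67.

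At d14+3, the loop's neighbours gave few low p-values. Bhlhe41, a repressor of E-box transcription, was the 1 member of 8 outputs past an unadjusted p of 0.05, with 46.7 ± 3.50 CPM in Control and 40.1 ± 3.82 CPM in ExpOF mice (SD, n = 6 each) and a log2 fold change of -0.22 ± 0.07 (SE; adjusted p = 0.443 in edgeR's test). None of the 5 paralogues and ROR receptors or of the 10 kinases, ligases and co-repressors passed. Signals that are known to reset clocks were also read. Of 8 genes induced by neuronal activity, 3 were lower in ExpOF d14+3 mice, namely Dusp1 (log2 fold change -0.46 ± 0.14 SE), Fos (-0.70 ± 0.23) and Junb (-0.42 ± 0.19), beside 7.11% of all genes past an unadjusted p of 0.05, and 0 passed at d14. With the length score as a covariate Dusp1, Fos and Junb had -0.35, -0.65 and -0.19. Between days in Control mice, 4 of the 8 were higher at d14+3 at an unadjusted p under 0.05, against 12.7% of all genes. In ExpOF mice 0 passed between days, and 0 of the 8 were called in either diet. Fos was at 4.91 ± 0.75 CPM in Control d14, 9.38 ± 3.60 CPM in Control d14+3 and 5.81 ± 1.79 CPM in ExpOF d14+3 (SD, n = 5, 6 and 6). Of 7 genes induced by glucocorticoids, 0 passed on either day. Of 6 temperature-responsive genes, Cirbp, an RNA-binding protein that cooling induces, had a log2 fold change of -0.34 ± 0.11 (SE) at d14 and -0.27 ± 0.10 at d14+3, Rbm3 one of -0.27 ± 0.11 at d14+3 and Hspa1a one of -0.41 ± 0.18 at d14. Cirbp at d14 had -0.12 with the length score as a covariate. None of these was called between diets (adjusted p of 0.135 or above at d14 and 0.384 or above at d14+3).

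Genes around the loop were also read between days. In Control mice Rora, Rorb and Hlf were higher at d14+3 and passed the adjusted threshold, with log2 differences of 0.94 ± 0.15, 0.39 ± 0.08 and 0.47 ± 0.09 (SE; adjusted p = 0.0067, 0.0137 and 0.0144 in edgeR's test). In ExpOF mice the same genes had 0.76, 0.20 and 0.37 (adjusted p = 0.0677, 0.358 and 0.0848). Npas2 had 0.35 in Control and 0.53 in ExpOF mice (adjusted p = 0.19 and 0.0754). Rora is also one of the 4 thalamus markers, but it is not part of the thalamus score. Vipr2, the receptor through which suprachiasmatic neurons synchronize, had 0.38 and 0.33 (adjusted p = 0.0542 and 0.148), and Rgs16 0.59 and 0.61. Bhlhe40 had 0.29 in ExpOF mice, and Usp2 had 0.28 and 0.30 in Control and ExpOF mice. With the thalamus score as a covariate, Rora, Rorb and Hlf in Control mice had 0.67, 0.38 and 0.21 (adjusted p = 0.0194, 0.0203 and 0.0318 in edgeR's test). Npas2, Vipr2 and Rgs16 had 0.04, 0.17 and 0.03 in Control mice. In ExpOF mice the same covariate gave Rora, Rorb, Hlf and Npas2 0.47, 0.19, 0.09 and 0.17 (adjusted p of 0.243 or above in edgeR's test). The score differs between the days, so its effect and that of the day cannot be told apart here either.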

How the data were processed

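Per the labels, the authors aligned reads of stranded, poly-A selected libraries to mm10 with STAR, counted them per gene with featureCounts 1.6.4 and deposited raw counts without normalization. Whether the counting used strand is not given in the sources used here. Symbols from GENCODE matched 55144 of 55471 genes. The main test was edgeR 4.0.16 in R 4.3.3: TMM scaling, filterByExpr (least count 10, least total 15), 1 robust quasi-likelihood model for all 4 groups, and Benjamini-Hochberg adjustment over 18992 genes. Log2 CPM used a prior count of 2. Alternatives included DESeq2 1.42.0, and covariates for the length and thalamus scores were added after the data were seen. The left-out library was identified by leaving out each library in turn. The mean scaled counts of the rest were then matched to the study's mean expression per gene. The clock genes and all other lists were chosen with earlier results of these data known. Named genes were all 10 clock genes, at most 4 genes per list and comparison with an unadjusted p under 0.05 (lowest p first), and the 5 genes most like Dbp, Per1 and Arntl. The test was tried on simulated counts before use.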

Additional observations from a re-analysis of the deposited data

Results flagged for a closer look

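In 40 groups of clock gene values (10 genes in 4 groups), 1 held a mouse far from the others, and chance flags about 1 in 20 such groups. Cry2 in Control d14 replicate 1 was at 134.1 CPM, against 146.2 CPM in the nearest Control d14 mouse, a gap of 0.864 of the group's whole range. The same library had the highest length score of its group, 4.35.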

How the results depend on the processing

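No clock gene was called in the 6 comparisons by the main test, and the exceptions among the alternatives were few. At d14, DESeq2 called 1 clock gene, libraries with a RIN of at least 9 called 3, and leaving out 1 library in turn gave 0 to 3, the 3 without Control d14 replicate 1. At d14+3, libraries with a RIN of at least 9 called 1. Between days in Control mice, the thalamus covariate called 2. With cohort and extraction round as covariates, 0 clock genes were called between diets on either day. With the replicate block 0 clock genes were called in any comparison, and the clock genes at an unadjusted p under 0.05 between days in ExpOF mice went from 4 to 2. Same-numbered libraries had correlations of deviations from -0.255 to 0.364, with 6 of 33 pairs over 0.1, so the numbers pair no mice. The cause was not tested for any of these changes.

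The signs of small fold changes turned. For Per1 at d14 (0.0014 in the main fit), the log2 fold change was -0.0043 with at least 10 counts in every library, -0.032 with a RIN of at least 9, -0.032 with RIN as a covariate, -0.012 in July, -0.0028 with only the 2 groups compared, and -0.045 to 0.062 with 1 library left out. With the length score, d14 gave Per3 -0.010, Cry1 0.015, Cry2 0.019, Clock -0.078, Nr1d1 0.069, Dbp 0.21, Gsk3b -0.045, Hdac3 0.027, Ncor1 -0.059 and Syt10 -0.13, and d14+3 gave Cry2 0.029, Clock -0.098, Nr1d1 0.068, Nr1d2 -0.012 and Dbp 0.0064. September alone gave Cry1 0.018 and Dbp 0.12 at d14, and Cry2 0.010, Arntl -0.046, Clock -0.032, Nr1d1 0.027 and Nr1d2 -0.11 at d14+3. All 24 libraries gave Arntl 0.031 at d14, and a RIN of at least 9 gave Cry1 -0.022 and Arntl -0.0040 at d14+3. Leaving out 1 library gave -0.052 to 0.023 for Cry2 and -0.078 to 0.045 for Nr1d1 at d14+3. The thalamus covariate gave Usp2 -0.068 in Control and -0.070 in ExpOF mice, and Rgs16 -0.035 in ExpOF mice, between days. Of 888 recomputed values, for the 10 clock genes in both diet comparisons and for Nr1d1, Arntl, Cry1 and Cry2 between days in ExpOF mice, 45 had the sign turned and 8 were called.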

Other observations

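The library left out by the study, Control d14 replicate 4, held clock gene levels beyond those of the 23 others for several genes. Per2 was at 12.9 CPM there, against 22.2 to 37.2 CPM elsewhere, Per3 at 24.7 CPM against 51.5 to 71.8, Clock at 38.9 CPM against 56.3 to 105.6, Arntl at 19.1 CPM against 26.9 to 34.4, Nr1d2 at 79.2 CPM against 90.8 to 152, and Nr1d1 at 70.4 CPM against 75.5 to 121.6. Cry2 (175 CPM against 123 to 162) and Cry1 (24.8 CPM against 19.5 to 24.6) were above the range of the others, and Per1 (59.4 CPM) and Dbp (51.0 CPM) were within it. Its label gives an RNA integrity number of 9.8.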
